A study of Mus musculus with 7 samples.

Results

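The 30 genes described here serve glucose uptake, glycolysis and lactate export, or belong to the set that cells switch on when oxygen is scarce. They were listed by name, with earlier results of these data known, and no measured value enters the rule: 14 glycolytic enzymes including lactate dehydrogenase, 3 transporters of glucose and lactate, 3 mitochondrial proteins, 2 oxygen sensors and 8 other hypoxia-responsive genes. All 30 were found among the 20294 genes with a symbol in the deposited table, and each is represented by its RefSeq transcript with the highest mean over the libraries. Ero1l is listed there as Ero1a.

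The series followed E14, an embryonic stem cell line of the mouse, kept in 2i, a medium whose kinase inhibitors hold the cells in the naive state. Every library, the 0 h library included, came from cells with the Brn2-RFP GAVPO induction cassette, in which the light-switched factor GAVPO turns on Brn2 (the POU factor Pou3f2) together with a red fluorescent protein. Cells on an Ibidi plate stood under an LED at 300 uW, and RNA was sequenced after 0, 2, 4, 6, 14, 24 and 48 h. There was 1 library per time and no replicate, so each time below names 1 library, and a difference between libraries cannot be told apart from the spread between cultures. Cells without the cassette, or kept dark for 48 h, are not analysed here, and the sources used here do not say whether the line is 1 clone or what oxygen the cells received.

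Depth was 7.06 to 16.1 M reads per library, and the deposited values behave as the number of reads per kilobase of a gene's genomic span, introns included, and per M reads. Where 7 values follow each other in order of time, they belong to 0, 2, 4, 6, 14, 24 and 48 h. Pou3f2 itself ranged from 7.19 at 48 h to 119 at 14 h, with 77.0 already at 0 h, and the sources used here do not say whether these values count the transgene. Of 8 stem cell markers, Pou5f1 (154 to 235) and Sox2 (66.8 to 97.0) were abundant throughout, and Esrrb stood between 1.91 and 4.41. Nanog ranged from 81.6 at 2 h to 33.4 at 14 h, with 67.3 at 48 h. Zfp42 ranged from 58.3 at 2 h to 34.3 at 48 h. Dppa5a fell from 1076 at 0 h to 491 at 48 h (limma-voom adjusted p = 0.0448), the 1 of the 8 called on reads. The median fitted log2 change of the 8 on reads was -0.48. Libraries differed in their levels of GC-rich transcripts. Genes in the top 10% of GC content deviated from their own means by a median log2 of -0.35 at 0 h. At 6, 14 and 48 h this median was 0.23, 0.19 and 0.51. With 1 library per time, a difference in preparation cannot be told apart from a difference in the cells. The members' counts are therefore given with this GC trend removed as well, where that changes them. In bulk RNA, fewer cells of a type and less RNA per cell cannot be told apart.

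Glycolysis splits glucose into pyruvate. A first stage spends ATP to make triose phosphates and a second stage recovers ATP, and lactate dehydrogenase then turns pyruvate into lactate, which leaves the cell through monocarboxylate transporters. When oxygen is ample, prolyl hydroxylases of the Egln family mark the alpha subunits of the hypoxia-inducible factors (HIF) for destruction through Vhl. When it is scarce, HIF pairs with Arnt on DNA at the letters ACGTG or GCGTG and raises many glycolytic genes as well as Pdk1, Bnip3 and Vegfa. Naive mouse stem cells use both glycolysis and mitochondrial respiration.

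No member was called rising or falling in the trend fits on the values or on the reads, and 4 members (Slc2a1, Slc2a3, Pfkp and Vegfa) were called on reads under other settings given with them below. The limma trend on log2(value + 1) called 19 of 6411 genes rising (0.296%) and 4 falling (0.0624%), and 0 of the 20 members that reached the required mean of 1, with 4 of these 20 and 1381 of all 6411 at an unadjusted p under 0.05. The other 10 members lay under that mean (Hk1, Egln1, Egln3, Ankrd37, Vegfa, Ndrg1, P4ha1, Car9, Mxi1 and Slc16a3). On recovered reads, where all 30 could be tested, limma-voom called 303 of 13438 genes rising (2.25%) and 107 falling (0.796%), and again 0 members, with 7 of the 30 and 3158 of all genes at an unadjusted p under 0.05. The median fitted log2 change from 0 to 48 h was 0.31 over the 20 members and 0.006 over all genes tested. The members' median was -0.064 with the GC trend removed and -0.20 without the 0 h library (-0.15 on reads without it).

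Set against 0 h, the other libraries were high in many of these genes, foremost the glycolytic enzymes. The 0 h library held the lowest value of 13 of the 30 members, against 13.8% of all genes on reads. It was lowest for 9 of the 14 enzymes and 4 of the 16 other members. With the GC trend removed, it held the lowest value of 10 of 30, against 9.95%. At 2 h, 24 of 30 members were higher than at 0 h, against 37.7% of all genes. They were all 14 glycolytic enzymes and 10 of the 16 other members. Over the 20 members in the main test, the median log2 ratio to 0 h was 0.60, 0.50, 0.50, 0.61, 0.42 and 0.38 from 2 h to 48 h in order of time, while the median over all genes stayed between -0.05 and 0.05. With the GC trend removed, the 48 h median was -0.05 and the 2 h median 0.46. All of these ratios share the 1 library at 0 h: set against 2 h, the members' median was -0.15, -0.27, 0.03, -0.27 and -0.37 from 4 h to 48 h.

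**Figure D1:**
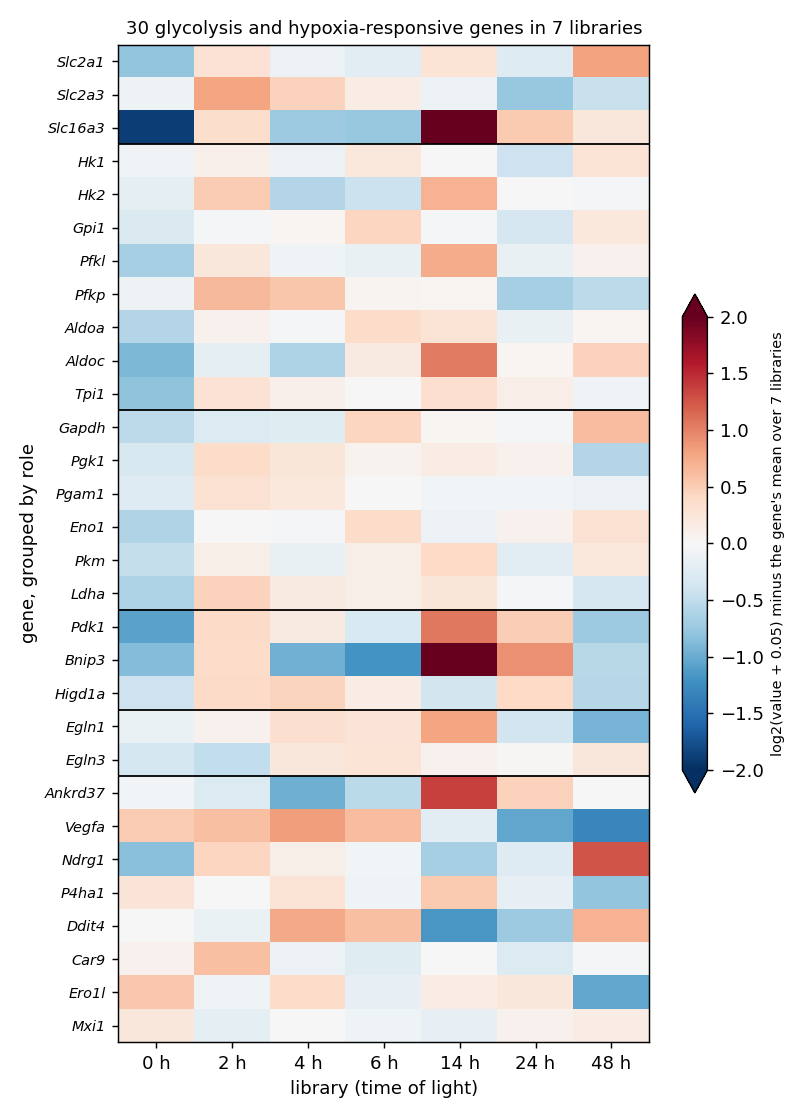
The 30 genes (rows, grouped by role and separated by lines) in the 7 libraries (columns); colour is log2(value + 0.05) minus the gene's own mean over the libraries, and saturates at 2. The 0 h column is the lowest for 13 genes and the 14 h column the highest for 11.

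Both glucose transporters were abundant and took different courses. Per kilobase of transcript, the neuronal-type transporter Slc2a3 (GLUT3) averaged 190 and the widespread Slc2a1 (GLUT1) 93.1 reads per M over the 7 libraries, while Slc16a3, the lactate exporter MCT4, averaged 1.86. The values of Slc2a1 were 5.67, 12.1, 9.08, 8.47, 11.9, 8.25 and 17.2 in order of time. It was lowest at 0 h and highest at 48 h, 3.03-fold apart, with further high points at 2 and 14 h. Its fitted log2 change on reads was 1.06 ± 0.39 (SE) and was not called (limma-voom adjusted p = 0.140). Without the 24 h library it was called rising, with a change of 1.37 ± 0.35 (limma-voom adjusted p = 0.0473).

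Slc2a3 stood at 44.3 at 0 h and 82.7 at 2 h, and then at 65.6, 52.8, 44.1, 28.1 and 35.1 at 4, 6, 14, 24 and 48 h. It peaked at 2 h, was lower in each later library down to 24 h, and its 3 late values lay below all 4 early ones, although 14 h and 0 h were close. Only Slc2a3 and Vegfa of the 30 members had this split, against 7.18% of all genes on reads, and only Ankrd37 had the opposite split, against 8.01%. The fitted change of Slc2a3 was -0.89 ± 0.42 and was not called (limma-voom adjusted p = 0.221). Without the 0 h library it was called falling (-1.96 ± 0.42, limma-voom adjusted p = 0.0244).

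Slc16a3, the lactate exporter of strongly glycolytic cells, was lowest at 0 h and highest at 14 h. Its values were 0.0879, 0.595, 0.257, 0.250, 2.37, 0.678 and 0.542 in order of time. They rest on about 15 reads at 0 h (95% exact Poisson interval 8.40 to 24.7) and 254 at 14 h (224 to 287), and these intervals cover counting error only. The 14 h library stood 26.9-fold above 0 h and 5.75-fold above the mean of 6 and 24 h on the log scale. All 3 transcripts listed for Slc16a3 were highest at 14 h, 15.4-fold to 26.9-fold above 0 h, but transcripts of 1 gene share reads. With 1 library at each time, this peak has no test, and the trend on reads was not called (2.36 ± 1.05, limma-voom adjusted p = 0.201). Slc16a1, the other main lactate carrier (MCT1), was higher in level and flatter, from 8.04 at 6 h to 15.8 at 2 h.

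All 8 enzymes of the first stage were higher at 2 h than at 0 h, and Pfkl, Aldoa, Aldoc and Tpi1 stayed above 0 h in every later library. Their summed level per kilobase of transcript was 768 at 0 h and between 1012 and 1361 in the later libraries. Hk2, the inducible hexokinase that traps glucose in the cell, stood at 2.06, 3.36, 1.55, 1.72, 3.81, 2.37 and 2.31 in order of time. It thus had high points at 2 h and 14 h with a trough between them, as had Slc2a1, Pdk1, Bnip3 and Slc16a3. Hk1, the constitutive hexokinase, stayed between 0.371 at 24 h and 0.626 at 48 h. Pfkl, the liver-type phosphofructokinase, went from 1.63 at 0 h to 3.05 at 2 h and 4.37 at 14 h, and lay between 2.34 and 2.76 in the other 4. Pfkp, the platelet-type form, had a different order: it was highest at 2 h (2.80) and lowest at 24 h (1.10). Its fitted change of -0.86 ± 0.42 was not called (limma-voom adjusted p = 0.234), but it was called falling without the 0 h library (-1.90 ± 0.44, limma-voom adjusted p = 0.0385). Pfkp overlaps Pitrm1 in the genome, and reads of the overlap may be counted for both.

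Further down the first stage, Aldoc, the brain-type aldolase, was the enzyme with the widest range. Its values were 1.36, 2.25, 1.66, 2.94, 5.40, 2.67 and 3.58 in order of time, from 30 to 148 reads. It was 3.96-fold higher at 14 h than at 0 h, yet its trend was not called (1.03 ± 0.36, limma adjusted p = 0.159). Aldoa, the common aldolase, was 142 at 0 h, 276 at 6 h and 193 to 260 in the others. Per kilobase of transcript it averaged 581 reads per M, against 4.27 for Aldoc. Tpi1, which interconverts the triose phosphates, stood at 54.3 at 0 h and between 91.0 and 121 later. Gpi1, the second enzyme of the path, ranged from 19.1 at 24 h to 32.8 at 6 h. Aldoa overlaps Fam57b and Tpi1 overlaps Spsb2.

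**Figure D2:**
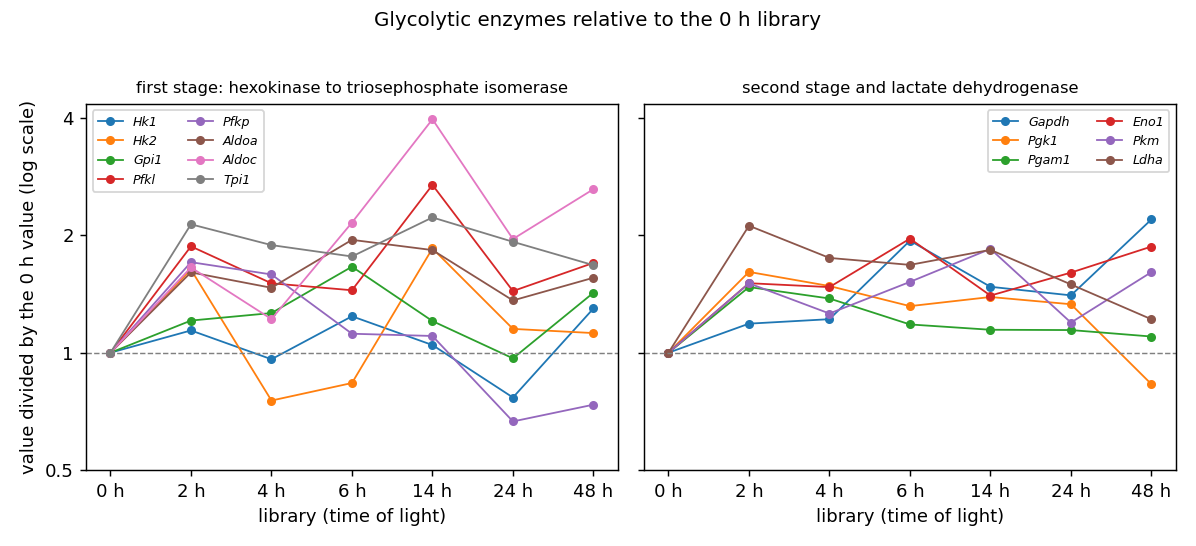
Value of each glycolytic enzyme divided by its value at 0 h (log scale) in the 7 libraries; the left panel shows the 8 first-stage enzymes, the right panel the 5 second-stage enzymes and Ldha, each point is 1 library, and lines only join the points of a gene. All 14 points at 2 h lie above 1, and Aldoc reaches 3.96 at 14 h.

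In the second stage the 0 h library was again low. The 5 enzymes and Ldha summed to 3304 reads per M per kilobase of transcript at 0 h and to between 4391 and 5763 later. Gapdh, which makes the first NADH of the path and is often used as a reference gene, varied 2.19-fold: 578, 686, 704, 1118, 852, 810.0 and 1268 in order of time. Its high points at 6 and 48 h fell in libraries where GC-rich transcripts were high as well (Gapdh is 56.6% GC). The fitted change of 0.93 ± 0.31 was not called (limma adjusted p = 0.147), and with the GC trend removed it was 0.45. Transcripts of 78 other annotated genes are at least 95% identical to Gapdh over 200 bases, so part of its reads may belong elsewhere. Eno1, the common enolase, was also lowest at 0 h (63.7) and high at 6 h (125) and 48 h (119), and is 57.4% GC. Its fitted change of 0.66 ± 0.31 was not called (limma adjusted p = 0.244), and with the GC trend removed it was 0.13. Whether GC content had a part in the courses of Gapdh and Eno1 was not tested.

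Ldha, which reduces pyruvate to lactate, was highest at 2 h. Its values were 28.1, 59.4, 49.1, 47.1, 51.5, 42.0 and 34.2 in order of time. The 2 h value was 2.11-fold above 0 h, the 48 h value lay closest to 0 h, and both transcripts listed were lowest at 0 h and highest at 2 h. Pgk1, the first ATP-yielding enzyme, went from 28.0 at 0 h to 45.1 at 2 h and was lowest at 48 h (23.2). Pgam1, the mutase after it, was 165 at 0 h, 243 at 2 h and 181 to 227 afterwards. Pkm, pyruvate kinase, peaked at 14 h (54.9) from 29.8 at 0 h, in both of its listed transcripts. Together the 14 enzymes took 0.720% of all reads at 0 h and between 0.951% and 1.20% in the later libraries. Without Gapdh the share was 0.493% at 0 h and 0.633% to 0.765% later.

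The promoter of Ldha is shown because it holds the most matches to the HIF letters among the enzymes, counted on both strands. The stretch is the 250 bases before the start in RefSeq's GRCm38.p6 annotation (chr7:46845554-46845803, plus strand), 5' to 3', with each ACGTG or GCGTG on either strand in capitals. A palindromic CACGTG counts once on each strand.
Ldha: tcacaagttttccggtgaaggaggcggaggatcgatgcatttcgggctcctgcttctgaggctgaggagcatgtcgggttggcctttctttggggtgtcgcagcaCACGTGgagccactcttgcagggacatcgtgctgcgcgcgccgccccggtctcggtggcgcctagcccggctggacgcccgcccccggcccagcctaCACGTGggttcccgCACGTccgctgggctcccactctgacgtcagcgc
It holds 5 matches, and all but the last lie in a CACGTG, which is counted on both strands. Hk1, Pfkp and Pgam1 come next among the enzymes with 3 matches each, none of them in a CACGTG. RefSeq promoters were found for 28 of the 30 members (all but Slc2a3 and Ndrg1), and 24 of the 28 had at least 1 match within the 250 bases, against 54.6% of promoters of the genes tested on reads. At least 3 matches were in 8 of 28, against 11.6%. A match is a string of letters, and occupancy by HIF was not measured.

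The 14 h library stood out for a few hypoxia-responsive genes. Of the 30 members 11 were highest at 14 h, against 15.3% of all genes on reads. At least 2-fold above the mean of 6 and 24 h were 3 members (Slc16a3, Bnip3 and Ankrd37), against 3.16% of all genes, and 1 member, Ddit4, was at least 2-fold below it, against 5.08%. Just short of 2-fold lay Pdk1 (1.96-fold), Aldoc (1.93-fold), Hk2 (1.89-fold), Pfkl and Egln1 (both 1.86-fold). With the GC trend removed, Pdk1 passed as well, which made 4, and the share of all genes was not counted in that setting. The median log2 difference was 0.20 over the members and 0.04 over all genes.

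Bnip3, which sits on the outer mitochondrial membrane and marks mitochondria for removal, had the highest 14 h excess after Slc16a3. Its values were 0.853, 2.07, 0.791, 0.669, 8.0, 3.06 and 1.07 in order of time. They came from 237 reads at 0 h, 171 at 6 h and 1360 at 14 h (95% exact Poisson interval 1289 to 1434). The 14 h library was 12-fold above 6 h, and 24 h and 2 h were the next highest. Its 14 h difference from the mean of 6 and 24 h exceeded that of 99.9% of the genes on reads. Its trend was not called (0.89 ± 0.79, limma adjusted p = 0.519). The span of Bnip3 contains a pseudogene, Gm18258, and 5 other annotated genes have transcripts at least 95% identical to it over 200 bases, so part of its reads may belong elsewhere.

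Pdk1, the kinase that closes pyruvate dehydrogenase and so keeps pyruvate from being burned in the mitochondria, had a course of the same kind at a smaller scale. It stood at 1.40, 3.92, 3.38, 2.40, 6.26, 4.24 and 1.78 in order of time. The 14 h value was 4.48-fold above 0 h, and 48 h was back near 0 h. Higd1a, a small protein of the respiratory chain complexes, did not share the 14 h peak: it was 5.64 at 14 h, between 8.10 and 10.02 at 2, 4, 6 and 24 h, and 5.48 and 4.93 at 0 and 48 h. Neither gene's trend was called (limma adjusted p = 0.625 for Pdk1 and 0.820 for Higd1a).

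Ankrd37, a small ankyrin-repeat protein and a known HIF target, was sparsely read but also highest at 14 h. Its values were 0.685, 0.580, 0.338, 0.472, 1.90, 0.990 and 0.716 in order of time, from 7 reads at 4 h to 51 at 14 h. The counting interval at 14 h (1.42 to 2.50) met that at 24 h (0.663 to 1.42) and lay above all others. Its 48 h value was only slightly above that of 0 h. The gene overlaps Lrp2bp and Ufsp2, and strand was not stated, so reads of these neighbours may be included.

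**Figure D3:**
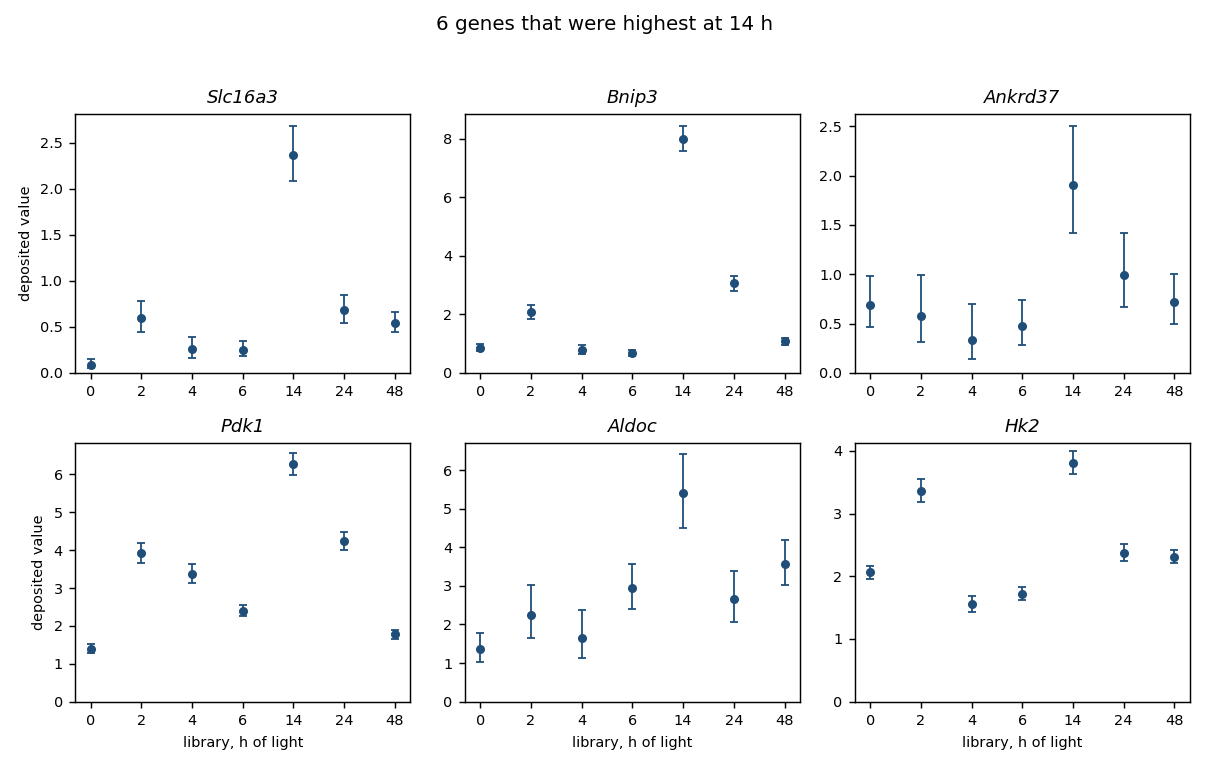
Deposited values of Slc16a3, Bnip3, Ankrd37, Pdk1, Aldoc and Hk2 in the 7 libraries, with bars for the 95% exact Poisson interval of the reads behind each value (counting error only). In each panel the 14 h point is the highest; Bnip3 reaches 8.0 there, against 0.669 at 6 h.

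The promoters of the 4 genes with the highest 14 h excess are given so that their letters can be compared, again before the start in GRCm38.p6 and without any bases that belong to an annotated exon. The strand is plus for Slc16a3 (chr11:120948817-120949052) and Pdk1 (chr2:71872974-71873223) and minus for Bnip3 (chr7:138909520-138909756) and Ankrd37 (chr8:45999868-46000100). Capitals mark ACGTG or GCGTG on either strand.
Slc16a3: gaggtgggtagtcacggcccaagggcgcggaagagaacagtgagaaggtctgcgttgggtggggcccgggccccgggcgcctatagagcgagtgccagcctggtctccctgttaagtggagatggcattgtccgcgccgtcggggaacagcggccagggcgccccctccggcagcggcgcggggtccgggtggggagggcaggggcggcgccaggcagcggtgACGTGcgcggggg
Bnip3: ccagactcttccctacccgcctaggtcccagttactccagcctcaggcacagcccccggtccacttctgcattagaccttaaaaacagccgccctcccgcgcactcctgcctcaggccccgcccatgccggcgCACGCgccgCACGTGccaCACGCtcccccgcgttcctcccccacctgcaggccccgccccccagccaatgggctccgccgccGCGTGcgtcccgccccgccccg
Ankrd37: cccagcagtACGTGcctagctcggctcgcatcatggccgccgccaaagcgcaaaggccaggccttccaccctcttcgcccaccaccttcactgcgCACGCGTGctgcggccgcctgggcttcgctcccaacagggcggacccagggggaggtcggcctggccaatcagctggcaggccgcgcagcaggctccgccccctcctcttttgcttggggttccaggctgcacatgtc
Pdk1: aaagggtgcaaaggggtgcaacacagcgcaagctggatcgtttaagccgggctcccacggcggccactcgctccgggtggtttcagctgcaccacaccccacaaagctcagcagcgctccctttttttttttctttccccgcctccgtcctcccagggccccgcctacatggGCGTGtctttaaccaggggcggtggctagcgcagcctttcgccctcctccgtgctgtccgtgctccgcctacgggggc
These stretches hold 1, 5, 3 and 1 matches. In Bnip3, 2 of the matches are the strands of 1 CACGTG. In Slc16a3 the match lies near the downstream end, and in Pdk1 it has the form GCGTG. Slc16a3 and Ankrd37 each have 1 more match that lies within the exon bases left out.

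**Figure D4:**
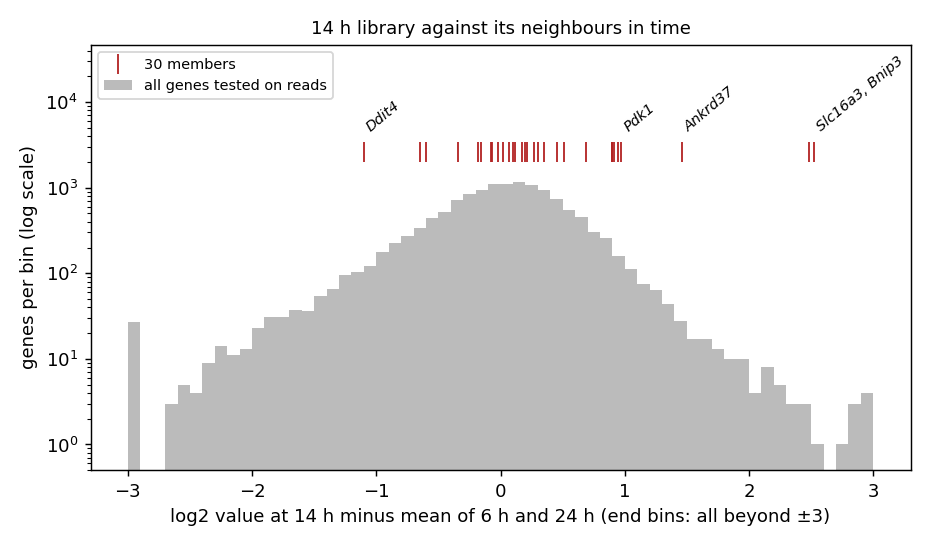
Histogram of the log2 difference between the 14 h library and the mean of the 6 h and 24 h libraries for the 13438 genes on reads (bars, log scale, with values beyond 3 gathered in the end bins); red ticks are the 30 members. Slc16a3, Bnip3 and Ankrd37 lie above 1, and Ddit4 lies below -1.

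The 2 h library also stood above the mean of its neighbours for many members, by less than 14 h for Slc16a3 and Bnip3. At least 1.5-fold above the mean of 0 and 4 h were 11 of 30 members, against 6.04% of all genes. They included all 3 transporters, Hk2, Pfkl and Tpi1 of the first stage, Ldha, Pdk1 and Bnip3. The highest of them was Slc16a3, 3.94-fold above that mean, followed by Bnip3 (2.51-fold). Ndrg1 and Car9 made up the rest. That mean includes the 0 h library, which was low for many members. Of the 11, Hk2 (3.36 at 2 h and 1.55 at 4 h), Bnip3 (2.07 and 0.791), Slc16a3 (0.595 and 0.257) and Car9 (0.451 and 0.254) differed most from 4 h. In the others 2 h was closer to 4 h, as in Tpi1 (116 and 102), Pdk1 (3.92 and 3.38) and Ldha (59.4 and 49.1). With the GC trend removed, Slc2a3, Pfkl and Tpi1 of the 11 fell short of 1.5-fold (log2 differences 0.57, 0.43 and 0.55). The share of all genes was not counted in that setting. The median log2 difference was 0.41 over the members and -0.12 over all genes, and the members' median was thus higher than that at 14 h.

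Both oxygen sensors were read at low levels. Egln1 (PHD2), the main prolyl hydroxylase, stood between 0.413 at 48 h and 1.48 at 14 h, 3.59-fold apart, with 0.752 at 0 h. Egln3 (PHD3), which HIF itself raises in many cells, lay between 0.0844 at 2 h and 0.179 at 6 h, from 16 to 69 reads, and had no peak at 14 h (0.150). Per kilobase of transcript Egln1 averaged 10.1 and Egln3 1.33 reads per M.

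Vegfa, the growth factor of blood vessels and a well-known HIF target, was lower in the late libraries. Its values were 0.668, 0.717, 0.849, 0.722, 0.378, 0.196 and 0.153 in order of time. The 4 early values lay close together and all 3 late ones lay below them, with counting intervals of 0.561 to 0.790 at 0 h and 0.106 to 0.214 at 48 h. In all 6 of its listed transcripts 4 h was highest, and 24 h was 0.111 to 0.231 of it, although these rows share reads. The trend on reads was a log2 change of -2.06 ± 0.60 and was not called (limma-voom adjusted p = 0.081). With the GC trend removed Vegfa was called falling (-2.73 ± 0.58, limma-voom adjusted p = 0.0385), among 236 rising (1.76%) and 86 falling genes (0.64%). As a step between the early and late libraries it was called too (-1.73 ± 0.35, limma-voom adjusted p = 0.0328), among 159 rising (1.18%) and 80 falling genes (0.595%). Without the 0 h library the change was -3.59 ± 0.76 (limma-voom adjusted p = 0.0246), and without any other library the adjusted p was 0.0745 to 0.563.

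The Vegfa promoter is given beside those of the genes with the 14 h peak (chr17:46032378-46032627, minus strand, 250 bases).
Vegfa: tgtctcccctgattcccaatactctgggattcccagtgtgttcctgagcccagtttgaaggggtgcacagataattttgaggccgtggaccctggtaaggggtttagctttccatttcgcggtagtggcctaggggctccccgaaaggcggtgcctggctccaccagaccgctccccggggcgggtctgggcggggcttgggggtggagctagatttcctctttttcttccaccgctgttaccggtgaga
It has neither ACGTG nor GCGTG in this window, hence no capitals. That says only that these letters are not in these 250 bases.

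The remaining hypoxia-responsive members had no common peak: Ddit4 was highest at 4 h, Ndrg1 at 48 h, Car9 at 2 h, P4ha1 at 14 h, and Ero1l and Mxi1 at 0 h. Ddit4, an inhibitor of mTORC1 that several stresses raise, had a 3.79-fold range: 28.7, 26.2, 48.7, 43.6, 12.8, 17.5 and 46.6 in order of time. It was lowest exactly where Bnip3 was highest, and high at 4, 6 and 48 h. Its trend was not called (-0.20 ± 0.70, limma adjusted p = 0.882). Ndrg1, a stress and differentiation gene, was 0.193, 0.537, 0.423, 0.366, 0.223, 0.314 and 0.994 in order of time. It was lowest at 0 and 14 h and 5.14-fold higher at 48 h than at 0 h, and it was not called (1.43 ± 0.67, limma-voom adjusted p = 0.217).

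Ero1l, an oxidase that forms disulfide bonds in the endoplasmic reticulum, was highest at 0 h (4.63) and lowest at 48 h (1.53), with 2.83 to 4.13 between them. Its change of -1.05 ± 0.41 was not called (limma-voom adjusted p = 0.157), and it was -0.43 with the GC trend removed. The transcript of Ero1l is 41.6% GC, and a part of GC content in its course was not tested. P4ha1, a collagen prolyl hydroxylase, was highest at 14 h (1.05) and lowest at 48 h (0.396). Mxi1, a Myc antagonist, stayed between 0.170 and 0.245. Car9, the carbonic anhydrase used as a tissue marker of hypoxia, was sparsely read, between 0.225 and 0.451 from 12 to 30 reads, with no peak at 14 h (0.279). None of these was called.

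**Figure D5:**
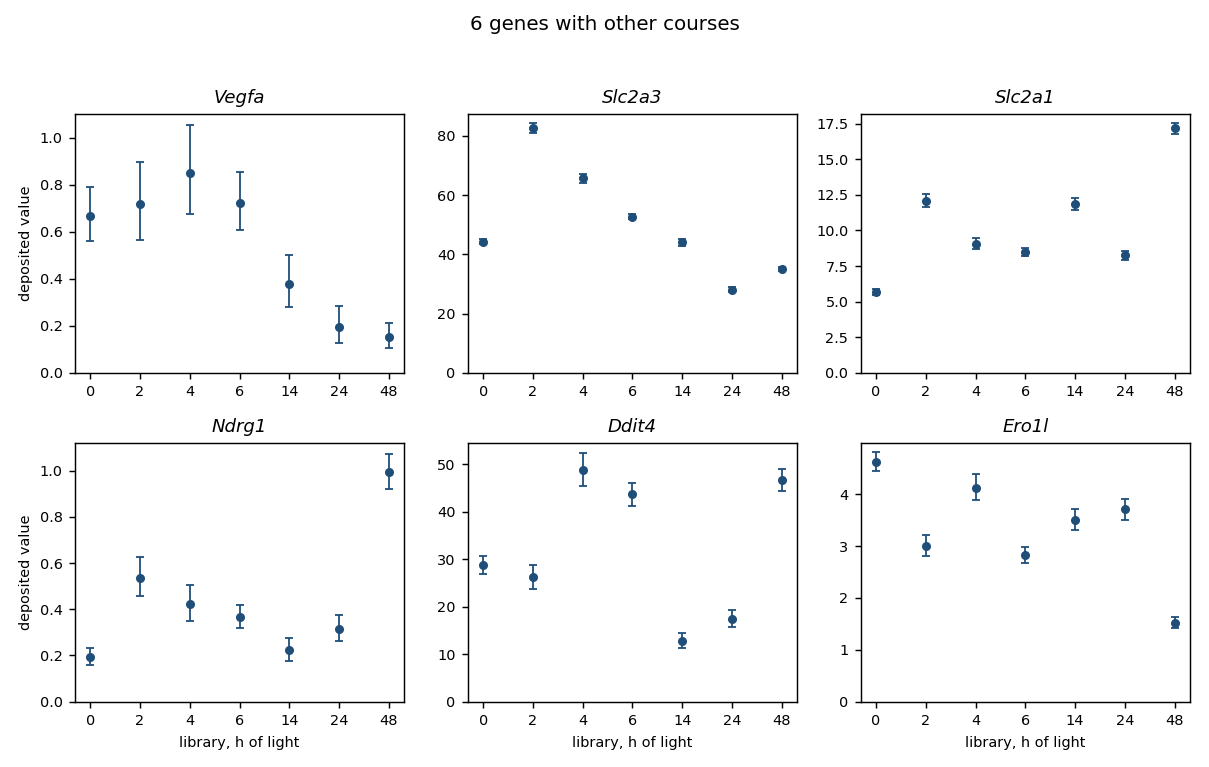
Deposited values of Vegfa, Slc2a3, Slc2a1, Ndrg1, Ddit4 and Ero1l in the 7 libraries, with bars for the 95% exact Poisson interval of the reads (counting error only). Vegfa stands at 0.849 at 4 h and 0.153 at 48 h, and Ddit4 has its lowest point, 12.8, at 14 h.

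Genes of the same pathways that are not among the 30 gave few calls. Of 28 further glycolysis genes 8 reached the mean for the limma trend and 21 were on reads, with 0 called in either fit, and their median log2 difference at 14 h was 0.14. Ldhb, the other lactate dehydrogenase subunit, was lowest at 14 h (19.0) and otherwise between 24.4 and 35.9. Of the 12 genes of pyruvate dehydrogenase and its control, 0 were called, and Pdhb, a subunit of the first enzyme, went from 44.7 at 0 h to 20.1 at 48 h (limma adjusted p = 0.147). Of 13 genes of gluconeogenesis and the pentose phosphate pathway, 0 were called. The median log2 differences of these last lists at 14 h were 0.17 and -0.03.

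Among 16 factors of the HIF pathway 1 was called, on reads only. This was Arnt2, the neural partner of HIF alpha subunits, which rose from 0.030 at 0 h to 0.129 at 48 h. Its fitted log2 change was 2.78 (limma-voom adjusted p = 0.024). Hif1a itself ranged from 3.91 at 48 h to 8.89 at 0 h, with 6.56 at 14 h, and was not called (limma adjusted p = 0.276). Of 30 further hypoxia-responsive genes on reads, 1 was called: Ak4, a mitochondrial adenylate kinase, fell by a fitted 1.67 on the log2 scale (limma-voom adjusted p = 0.021). At 14 h, 2 of the 30 were at least 2-fold above 6 and 24 h, namely Narf (3.41 at 14 h, 1.13 at 6 h and 1.89 at 24 h) and Tfrc, the transferrin receptor (19.1, 7.17 and 12.4), and 4 were at least 2-fold below. The 4 were Mif, a cytokine with 322 at 0 h and 1412 at 48 h, and Car12, Edn1 and Loxl2, which had low values. Bhlhe40, a repressor that hypoxia and other stimuli raise, was highest at 2 h (14.2), against 1.24 at 0 h and 7.51 at 4 h. Arnt2, Ak4, Narf, Bhlhe40, Car12, Edn1 and Loxl2 were singled out after their values were seen.

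Markers of other cells that such a culture could hold were mostly low, and a few of them rose. Of 10 markers of fibroblasts and feeder cells, Col1a1 and Col3a1 stayed at or under 0.073 and Lum was listed at 0 in all libraries but 48 h. The summed level of the 10 per kilobase of transcript went from 4.99 at 0 h to 22.1 at 48 h, against 3398 and 2475 for the 8 stem cell markers. Of the 5 on reads 1 was called, Col1a2, which rose from 0.045 at 0 h to 2.16 at 48 h. Its fitted log2 change was 9.33 (limma-voom adjusted p = 0.008). Such a fitted change comes from the trend over all libraries and is not the ratio of the 2 values. At 14 h Twist1 of this list was high (8.08, against 1.35 at 6 h and 4.98 at 24 h) and Thy1 was low (0.317, against 1.39 and 0.696), and the list's median log2 difference at 14 h was -0.0087. The 10 neuronal markers summed to 72.6 at 0 h, 137 to 190 from 2 to 24 h and 380.0 at 48 h. Of the 7 on reads 2 were called rising, both at low levels. Map2 went from 0.0078 at 0 h to 0.116 at 48 h (fitted log2 change 3.75, limma-voom adjusted p = 0.0075). Syt1 went from 0.00039 to 0.0071 (fitted log2 change 3.80, limma-voom adjusted p = 0.0275). Tubb3, which was not called, stood at 5.40 at 0 h and 44.6 at 48 h. The 7 of primitive endoderm summed to 2.80 at 0 h and 11.2 at 48 h. Of the 5 on reads 1 was called, Foxa2, which rose from 0.115 to 4.62 (fitted log2 change 6.45, limma-voom adjusted p = 0.006). Gata4 (0.0783 and 0.0267), Sox17 (0.110 and 0.0564), Dab2 and Pdgfra were lower at 48 h than at 0 h. Sox7 (0.325 at 0 h and 0.590 at 48 h) and Gata6 (0.0061 and 0.0150) were higher. The list's median change on reads was -0.33. Their part in the courses above was not tested.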

How the data were processed

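Messenger RNA was measured in 7 libraries, 1 per time of light. Per the labels' protocols, RNA was purified on RNeasy columns and sequenced from Lexogen SENSE libraries. Alignment was to mm9 with Bowtie2 (version not stated), per the submitters' processing notes. How reads were counted, and whether by strand, the sources used here do not say. The table the authors deposited gives 1 normalized signal per RefSeq transcript, with no other unit stated. Multiplied by the genomic span and a depth per library, 81.6% to 82.7% of values between 2 and 20 reads came within 0.1 of a whole read (20% by chance), against at most 21.7% with transcript length. Reads, shares and levels per kilobase of transcript were computed from this; they are approximate, since GRCm38 gave the spans. The design allowed for counts or normalized values, and the latter's test applied.

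Of 30673 rows, 3320 start-site rows at 0 and 695 further placements of a transcript were left out, 26930 rows were matched to a symbol by accession, and the row of highest mean was kept for each of 20294 genes. Of these, 6411 had a mean of at least 1. Trends were fitted with limma 3.58.1 (lmFit and eBayes, trend = TRUE, under R 4.3.3) on log2(value + 1) against log2(hours + 1), with 5 residual degrees of freedom and a Benjamini-Hochberg adjusted p under 0.05 over all genes tested. The change is the fitted one from 0 to 48 h, with its SE. limma-voom was fitted on recovered reads (at least 10 in at least 3 libraries, 13438 genes, 0.5 reads added on the log scale). The fits were tested on simulated data. Near-identical transcripts of other genes (at least 95% over 200 bases) exist for 12 members, 78 of them for Gapdh, so reads of these members are uncertain.

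The members and lists were chosen with earlier results of these data known. All members are named, and of the other lists the called genes, or those of mean at least 5 with the largest changes, of which not all are reported. The counts at 0, 2 and 14 h, the promoter search, and the read fits with the GC trend removed, as a step or without a library were chosen after seeing the data. To remove a library's GC trend, deviations of genes from their means were fitted by a spline (5 degrees of freedom) on GC content, using 2447 genes with a mean of 5 or more. Promoter sequences are RefSeq's (GRCm38.p6).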

Additional observations from a re-analysis of the deposited data

How the results depend on the processing

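Of 463 values of single members under other settings, 428 kept their sign and their side of the threshold, 3 became called (Vegfa on reads, as given above) and 32, over 14 genes, changed sign with no call on either side; the causes were not tested. These values leave out the further refits on reads of the 20 members in the main test, in which Slc2a3 and Pfkp were called without 0 h and Slc2a1 without 24 h. The changes of sign were: with quantile normalization Gpi1 -0.0089 and Ldha -0.074; in linear hours Ldha -0.31, Pdk1 -0.18 and Ddit4 0.16; by rank of time Ldha -0.018; as a step Gpi1 -0.088 and Ldha -0.077; with the GC trend removed Gpi1 -0.066, Pfkl -0.063, Aldoa -0.074, Pkm -0.065 and Ldha -0.064; and on reads, Hk1 -0.45 with the GC trend removed and, as a step, Hk1 -0.081 and Mxi1 0.051. As single libraries were left out, the values ranged from -0.12 to 0.42 for Gpi1, -0.16 to 0.65 for Aldoa, -0.24 to 1.01 for Tpi1, -1.003 to 0.33 for Pgk1, -0.56 to 0.065 for Pgam1, -0.87 to 0.55 for Ldha, -0.42 to 1.42 for Pdk1, -1.15 to 0.17 for Ddit4 and -0.96 to 0.34 for Higd1a, and on reads from -0.29 to 0.32 for Hk1, -1.49 to 0.24 for Egln1 and -0.28 to 0.50 for Mxi1. The lowest or highest value came without 0 h or without 48 h in each of these; on reads Hk1 was -0.025 without 0 h and Mxi1 0.028 without 14 h. The members' median fitted change ranged from -0.20 (without 0 h) to 0.53 as libraries were left out, and from -0.15 (without 0 h) to 0.41 on reads; it was -0.064 with the GC trend removed and -0.090 with it removed on reads.

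No member was called on log2 values under any setting run. On reads 0 to 1 were called rising and 0 to 3 falling as libraries were left out, 1 falling with the GC trend removed and 1 falling as a step. Of all genes, the rising count of 19 and falling count of 4 became 1 and 0 with quantile normalization, 0 and 0 without a filter, 36 and 7 with 0.1 added, 0 and 0 with 5 added, 162 and 28 in linear hours, 43 and 12 by rank, 0 and 0 with the GC trend removed, 303 and 107 on reads, 236 and 86 on reads with that trend removed, and 159 and 80 on reads as a step. The falling count was 1 with a mean of at least 5 and 26 as a step. Leaving out 1 library gave 1 to 52 rising and 0 to 24 falling. Against 2 h in place of 0 h the members' median log2 ratio was -0.15, -0.27, 0.03, -0.27 and -0.37 at 4, 6, 14, 24 and 48 h; against the mean of 0 and 2 h it was 0.095, 0.036 and 0.027 at 6, 24 and 48 h; with the GC trend removed it was -0.051 at 48 h. No paired analysis was possible because each time has 1 library and the labels give no replicate numbers. Depth limits Ankrd37, Car9, Egln3, Vegfa and Slc16a3 most, which rest on 7 to 254 reads a library.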
